A study of Drosophila melanogaster with 4 samples.

Results

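The proteasome subunit genes of Drosophila melanogaster were followed in wing imaginal discs, the larval epithelia that form the adult wing and notum, of wtsP2 and wild-type third-instar larvae. Members were the features of the count files whose FlyBase symbol begins with Prosalpha, Prosbeta, or Rpn or Rpt followed by a digit, which gave 47 of 15222 features. Of these, 32 encode the canonical subunits and 15 are paralogs, 3 of them with a T for testis in the symbol. No measured value entered the rule, but the members were chosen with earlier results of these data known. The symbol Prosalpha4T1 of the name table had no feature under its current identifier and was not analysed here.

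The wtsP2 group held 2 libraries of total RNA from larvae with the warts (wts) allele wtsP2, and the wild-type group 2 libraries from wild-type larvae. The strain label is yw for both, the stage is L3, and discs had been dissected by hand from wandering larvae. Warts is the Hippo pathway kinase that restrains the growth coactivator Yorkie. The labels give neither the zygosity of wtsP2 nor the number of larvae or discs in a library, and they do not tell whether replicates are separate cultures. P-values thus measure only how far these libraries spread, which may be technical.

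The proteasome degrades proteins tagged with ubiquitin. Its barrel-shaped core particle is a stack of rings, with outer alpha rings that gate the entrance and inner beta rings that hold the proteolytic sites. A regulatory particle sits on the end of the barrel, with a base of ATPases and scaffold subunits that unfolds substrates and a lid that removes ubiquitin. In growing discs the proteasome turns over or processes signalling proteins such as Armadillo, Cubitus interruptus and Diap1. The subunits come together in fixed proportions.

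Library totals were 3520970 and 3846682 counts in wtsP2 and 2112468 and 696952 counts in wild type. The wts gene had 48 and 24 counts in wtsP2 and 46 and 0 counts in wild type, too few to check the genotype labels, and the labels do not say whether the allele lowers the transcript. Of a list of 9 wing disc genes, 6 were matched and had counts above 0 in every library, nub and sd among them, although dpp had 1 count in the second wild-type library. Summed levels of larval fat body genes were far lower in wtsP2, at 1412 and 1658 scaled CPM, against 20481 and 18711 in wild type. Scaled CPM are counts relative to the library's total over the tested genes (CPM), corrected by TMM, a trimmed-mean factor for each library.

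Transcripts of the 32 canonical subunit genes took a smaller share of the counts in wtsP2 than in wild type. They took 0.461% (95% Wilson interval 0.454 to 0.468) and 0.400% (0.394 to 0.407) of the counts in wtsP2. In wild type they took 0.701% (0.690 to 0.712) and 0.568% (0.551 to 0.586). The intervals cover counting error only, and the libraries of the groups did not overlap. In bulk discs, fewer cells of a type and less RNA per cell cannot be told apart. Out of protein-coding counts alone the shares were 0.580% and 0.527% in wtsP2 and 0.886% and 0.743% in wild type. The gap was narrower, but without overlap, out of the counts of the 4424 tested protein-coding genes with lengths in the range of the subunit genes, at 1.14% and 1.10% in wtsP2 and 1.49% and 1.33% in wild type.

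Of the 32 canonical genes, 31 passed the filter on low counts, and Prosalpha1 had no counts in any library. The median log2 fold change of wtsP2 over wild type was -0.55 over the 31 genes, beside 0.24 over all 7278 tested genes. Negative values were found for 24 of the 31, where 42% of all tested genes were negative and 58% positive. Both wtsP2 libraries lay below both wild-type libraries for 14 of the 31 (background 15.1% of all tested genes). The reverse order, with wtsP2 above, was found for 0 of the 31 (background 32.3%), and the libraries overlapped for the other 17. No subunit gene passed the threshold in edgeR's quasi-likelihood test at an adjusted p under 0.05: 0 were higher and 0 lower, where the background was 0% in each direction. At an unadjusted p under 0.05, 4 were lower (Rpt1, Prosbeta1, Rpn5 and Rpn9; background 2.65%) and 0 higher (background 9.91%). Among other tested genes within the subunit genes' ranges of length and level, 5.03% were lower at that p. The share was 7.72% in the same range of level and between the quartiles of their lengths. DESeq2 and limma-voom also called 0 in either direction, where the background was 1.06% higher and 0.919% lower in DESeq2, and 1.69% higher and 0.371% lower in limma-voom.

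**Figure D1:**
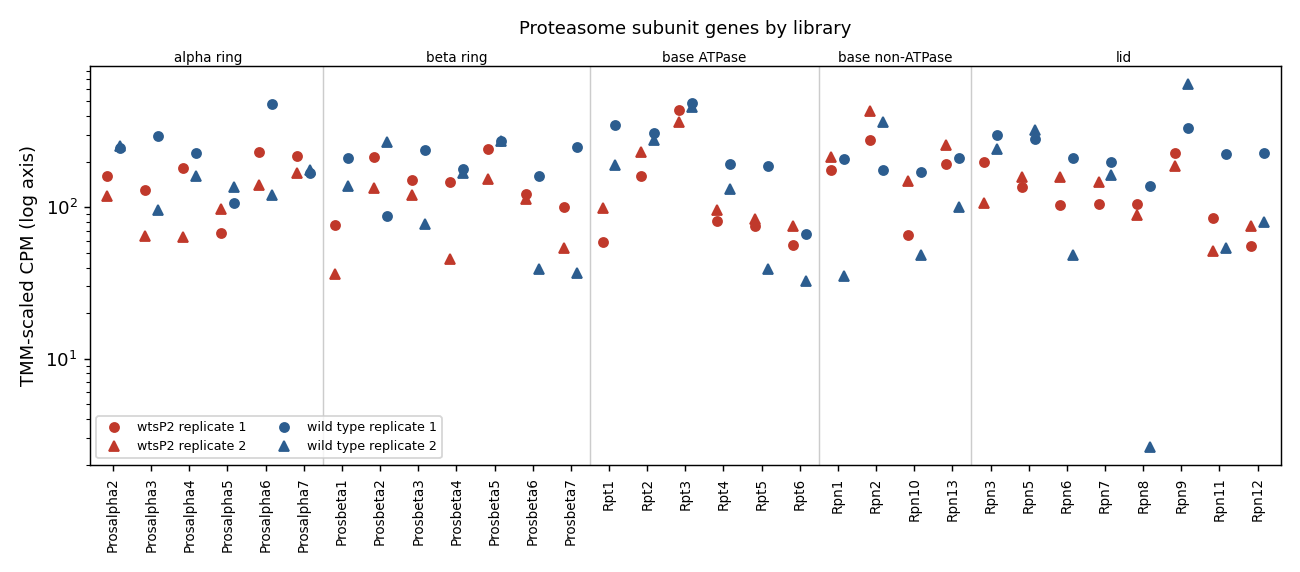
TMM-scaled CPM (log axis) of the 31 tested canonical proteasome subunit genes in each library, by subcomplex, with wtsP2 in red to the left and wild type in blue to the right of each gene. Both red points lie below both blue points for 14 genes, and the second wild-type library falls under 50 scaled CPM for 8 genes, Rpn8 the lowest.

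**Figure D2:**
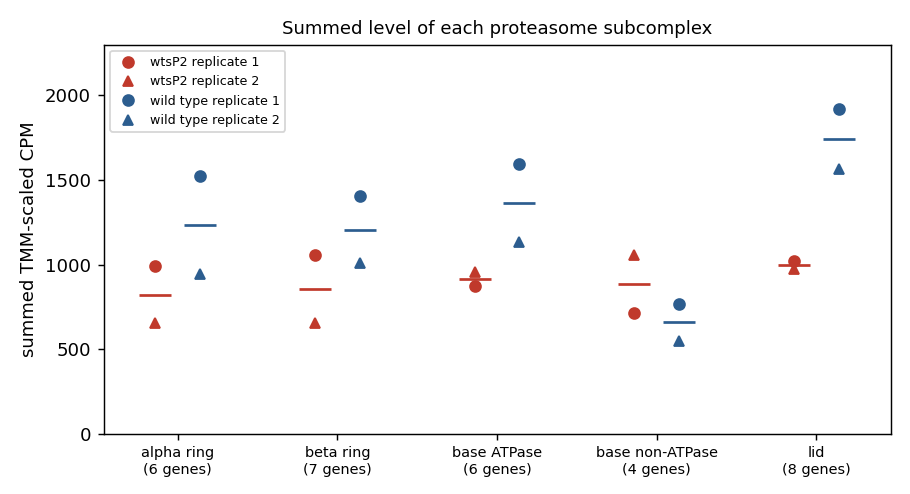
Summed TMM-scaled CPM of each subcomplex in each library, with a bar at the mean of the 2 libraries of a group. Rpt1, whose counts are uncertain, is in the sum of the base ATPases. The wtsP2 libraries lie below the wild-type libraries for the lid and the base ATPases, and the groups overlap for the alpha ring, the beta ring and the base subunits that are no ATPases.

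The subcomplexes did not share one value. Summed over its 8 genes, the lid had 1021 and 973 scaled CPM in wtsP2 and 1919 and 1562 in wild type, a ratio of means of 0.573. The base ATPases had 876 and 953 scaled CPM in wtsP2 and 1595 and 1133 in wild type, a ratio of 0.670. Lid and ATPase sums were thus lower in both wtsP2 libraries. The beta ring had 1055 and 657 scaled CPM in wtsP2 and 1406 and 1008 in wild type, and the alpha ring 991 and 652 in wtsP2 and 1524 and 945 in wild type. In both rings the first wtsP2 library lay above the second wild-type library. The 4 base subunits that are no ATPases ran the other way, with 714 and 1058 scaled CPM in wtsP2 and 769.6 and 547 in wild type, a ratio of 1.35 between overlapping groups. Differences between subcomplexes were not tested.

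Rpt1 encodes an ATPase of the base ring, which unfolds substrates and threads them into the core particle. The gene (FBgn0028687; chromosome 2R, 3539945 to 3541453, minus strand; build BDGP5, as the count files give it, here and below) had 58.8 and 98.7 scaled CPM in wtsP2 and 349 and 190.2 in wild type. Both wtsP2 libraries were low, and the value of -1.78 ± 0.54 (log2 fold change and its SE, n = 2 in each group; edgeR adjusted p = 0.368) was the most negative of the 31. It was called lower when the first wild-type library was left out (adjusted p = 0.0309) and when the second was (0.000107), but not when either wtsP2 library was. With 1 wild-type library left, the spread in such a fit comes from the wtsP2 pair alone. The whole Rpt1 span lies inside CG17985 on the same strand, so its counts are uncertain: CG17985 had 37 and 109 counts in wtsP2 and 37 and 0 in wild type, and in the authors' deposited table, made from another counting, Rpt1 is listed at 0 in both groups.

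The other ATPase genes spread around smaller values. Rpt4 had 80.9 and 95.6 scaled CPM in wtsP2 and 193 and 131 in wild type (log2 fold change -0.88 ± 0.49). Rpt2 had 162 and 233 in wtsP2 and 311 and 278 in wild type (-0.58 ± 0.39). Rpt3, the subunit gene with the highest RPKM in both wtsP2 libraries, had 442 and 366 in wtsP2 and 488 and 462 in wild type (-0.23 ± 0.34). For these 3 genes both wtsP2 libraries were below both wild-type libraries, by a narrow margin for Rpt3. Rpt5 (75.4 and 84.2 scaled CPM in wtsP2, 187 and 39.4 in wild type) and Rpt6 (56.5 and 75.3 in wtsP2, 66.2 and 32.8 in wild type) overlapped their wild-type libraries, at -0.51 ± 0.85 and 0.41 ± 0.90. Rpt2, Rpt4, Rpt5 and Rpt6 overlap neighbours on the other strand, as do Rpn6, Rpn7, Rpn9, Prosalpha2, Prosbeta1, Prosbeta2 and Prosbeta3, and the strand setting of the counting is not given.

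In the lid, Rpn5, Rpn9, Rpn12, Rpn3 and Rpn7, which are among the structural subunits of its horseshoe of helical repeats, were lower in both wtsP2 libraries. For Rpn6, Rpn8 and Rpn11 the groups overlapped. Rpn5 (FBgn0028690; chromosome 3R, 1615211 to 1617291, plus strand) had 137 and 159 scaled CPM in wtsP2 and 284 and 323 in wild type. The 4 libraries split cleanly by group, with a log2 fold change of -1.04 ± 0.37 (edgeR adjusted p = 0.368), and Rpn5 was called lower with the first wild-type library left out (0.0199) but not with the second left out (0.0923). Rpn9 (FBgn0028691; chromosome 3R, 19557225 to 19559184, minus strand) had 229 and 188 scaled CPM in wtsP2 and 334 and 648 in wild type. Its value of -1.23 ± 0.46 leaned on the second wild-type library, and was -0.64 with that library left out (adjusted p = 0.262) and -1.63 with the first left out (0.00172). Rpn12 had 55.3 and 74.7 scaled CPM in wtsP2 and 229.9 and 80.0 in wild type, where the second wild-type library lay just above the wtsP2 pair (-1.26 ± 0.69; -0.29 with the first wild-type library left out and -1.78 with the second left out).

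Rpn3 had 199.8 and 107 scaled CPM in wtsP2 and 298 and 243 in wild type (log2 fold change -0.82 ± 0.47), and Rpn7 had 105 and 146 in wtsP2 and 199 and 164 in wild type (-0.54 ± 0.44). Rpn11 encodes the metalloprotease that cuts ubiquitin chains off substrates. It had 85.4 and 51.6 scaled CPM in wtsP2 and 224 and 53.8 in wild type, so that the groups overlapped (-1.02 ± 0.83). Rpn8 encodes the partner of Rpn11 that lacks its active site. It had 105 and 88.9 scaled CPM in wtsP2 and 137 and 2.62 in wild type, where the second wild-type library held 2 counts. Its value of 0.46 ± 1.49 was decided by that library: it was -0.46 with that library left out and 5.19 (adjusted p = 0.000252) with the first left out. Rpn6, which in yeast clamps the lid to the core particle, had 104 and 159 scaled CPM in wtsP2 and 213 and 48.5 in wild type (0.00 ± 0.79).

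In the beta ring, Prosbeta1, Prosbeta2 and Prosbeta5 carry the catalytic threonines, with caspase-like, trypsin-like and chymotrypsin-like specificity. Prosbeta1 (FBgn0010590; chromosome 2R, 11901309 to 11902285, minus strand) had 76.3 and 36.2 scaled CPM in wtsP2 and 213 and 139 in wild type. The groups did not overlap, the log2 fold change was -1.65 ± 0.62 (edgeR adjusted p = 0.369), and the gene was called lower with the second wild-type library left out (0.00356) but missed the threshold with the first left out (0.0625). Prosbeta5 had 242 and 154 scaled CPM in wtsP2 and 276 and 276 in wild type (-0.48 ± 0.41). Prosbeta2 had 215 and 134 in wtsP2 and 87.2 and 272 in wild type, a wide split within wild type (-0.03 ± 0.66). The values of the catalytic subunit genes ran from -1.65 to -0.03, and differences between these genes were not tested.

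Among the other beta genes, Prosbeta4 was lower in both wtsP2 libraries (146 and 45.4 scaled CPM in wtsP2, 179.7 and 168 in wild type; log2 fold change -0.86 ± 0.67). Prosbeta3 had 151 and 121 scaled CPM in wtsP2 and 241 and 77.4 in wild type (-0.23 ± 0.65). Prosbeta6 had 123 and 113 in wtsP2 and 161 and 39.4 in wild type (0.23 ± 0.77), and Prosbeta7 had 101 and 53.8 in wtsP2 and 249 and 36.7 in wild type (-0.89 ± 0.98). In these 3 genes the wtsP2 libraries lay between a high first and a low second wild-type library. Dominant temperature-sensitive alleles of Prosbeta2 and Prosbeta6 are used in flies to block the proteasome in chosen tissues.

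In the alpha ring, Prosalpha2 (FBgn0086134; chromosome 3R, 8257047 to 8258279, plus strand) had 162 and 118 scaled CPM in wtsP2 and 247 and 255 in wild type. Its wild-type libraries lay close together and above both wtsP2 libraries, with a log2 fold change of -0.84 ± 0.40. Prosalpha5 was lower in both wtsP2 libraries too (67.7 and 97.9 scaled CPM in wtsP2, 106 and 136 in wild type; -0.55 ± 0.55). Prosalpha3 had 129 and 64.4 scaled CPM in wtsP2 and 296 and 95.8 in wild type (-1.02 ± 0.72), Prosalpha4 had 181 and 63.9 in wtsP2 and 227 and 161 in wild type (-0.67 ± 0.63), and Prosalpha6 had 233 and 140.0 in wtsP2 and 479 and 121 in wild type (-0.69 ± 0.73). In all 3 the first wtsP2 library lay above the second wild-type library. Prosalpha7 had the 1 positive value of the ring, with 218 and 168 scaled CPM in wtsP2 and 168 and 176 in wild type (0.17 ± 0.39).

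The base subunits that are no ATPases had a median log2 fold change of 0.47, while the medians of the other subcomplexes were below 0. Rpn1 and Rpn2 are the large scaffolds of the base, Rpn10 and Rpn13 bind ubiquitin chains, and Rpn13 sits on Rpn2. Rpn2 (FBgn0028692; chromosome 3R, 24979185 to 24982981, plus strand) had 277 and 436 scaled CPM in wtsP2 and 175 and 363 in wild type (log2 fold change 0.41 ± 0.51). Rpn13 had 194 and 258 scaled CPM in wtsP2 and 213 and 99.7 in wild type (0.53 ± 0.51). Rpn1 had 177 and 214 in wtsP2 and 209 and 35.4 in wild type, where its value of 0.66 ± 0.84 rested on the second wild-type library and was -0.06 without it. Rpn10 had 65.7 and 150.0 scaled CPM in wtsP2 and 172 and 48.5 in wild type (-0.04 ± 0.82). In each of the 4 genes the groups overlapped.

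**Figure D3:**
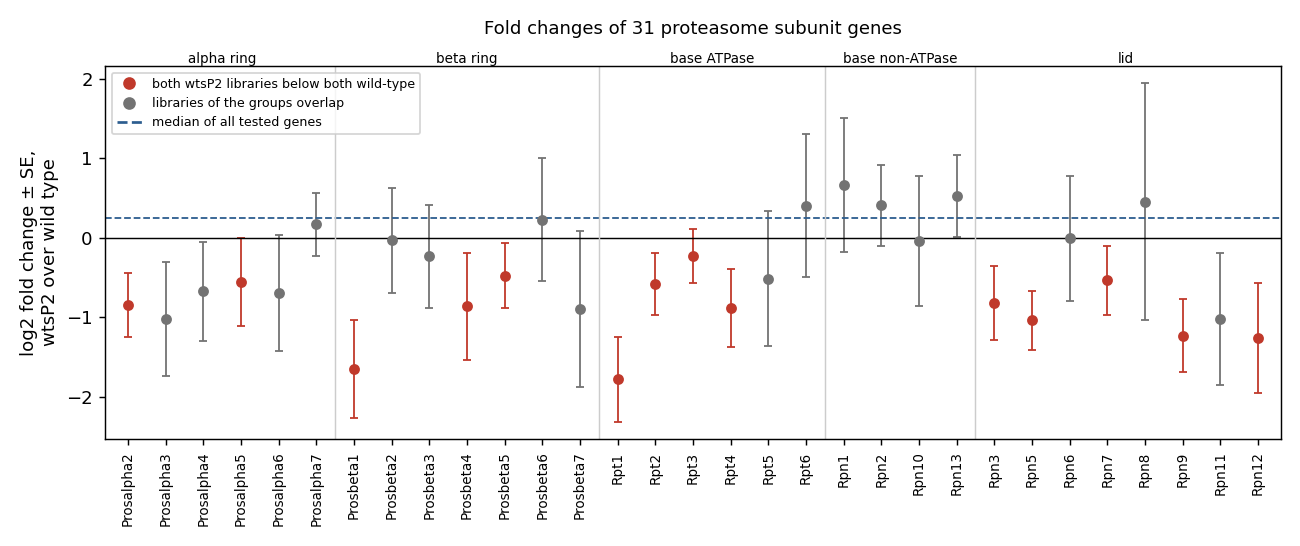
Log2 fold change (wtsP2 over wild type, edgeR) with its SE for the 31 tested canonical subunit genes, by subcomplex. Red points are the 14 genes with both wtsP2 libraries below both wild-type libraries, and the dashed line is the median of all tested genes, 0.24; 24 points lie below 0.

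The calls with a wild-type library left out depended on which library it was. Without the second wild-type library, 7 subunit genes were called lower (Prosalpha3, Prosalpha6, Prosbeta1, Prosbeta7, Rpn11, Rpn12 and Rpt1; background 5.67%) and 0 higher (background 12.3%). Without the first, 3 were called lower (Rpn5, Rpn9 and Rpt1; background 8.53%) and 5 higher (Prosbeta6, Rpn1, Rpn13, Rpn6 and Rpn8; background 31.5%). In that fit the median was -0.19 over the subunit genes and 1.33 over all tested genes. Without the first wtsP2 library 0 were called in either direction (background 0.128% higher and 0.179% lower), and likewise without the second (0.0386% and 0.193%). Rpt1 was the 1 subunit gene called in both fits that left out a wild-type library. The common biological coefficient of variation over all tested genes was 92.8%.

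The subunit genes are short, and the fold change went with length across the transcriptome. Their median length was 1392 bases (767 to 3386), against 2096 for all tested genes, and 4 of the 31 have a single exon. Across all tested genes the log2 fold change rose with length (Spearman rho = 0.176, over genes, which are not independent replicates), and across the 31 subunit genes rho was 0.259, where all points share the same 4 libraries. In the length classes that hold 29 of the 31, the median of the other genes ran from -0.04 to 0.10, while the medians of the subunit genes ran from -0.82 to -0.54. Rpn1 and Rpn2, the longest, lay at 0.66 and 0.41, beside class medians of 0.31 and 0.38. Among 1551 other tested genes within the ranges of both length and level of the subunit genes, the median was -0.09, 54.6% were negative, and 24.2% had both wtsP2 libraries below both wild-type libraries. In the same range of level and between the quartiles of the subunit genes' lengths (311 genes), the median was -0.32, 65.3% were negative and 30.2% had both wtsP2 libraries below. The same shares for the subunit genes were 77.4% and 45.2%. On each of these measures, genes alike in length and level lay between all tested genes and the subunit genes. After a correction of every library for its trend with gene length, the median of the subunit genes was -0.58 and that of all tested genes 0.25.

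**Figure D4:**
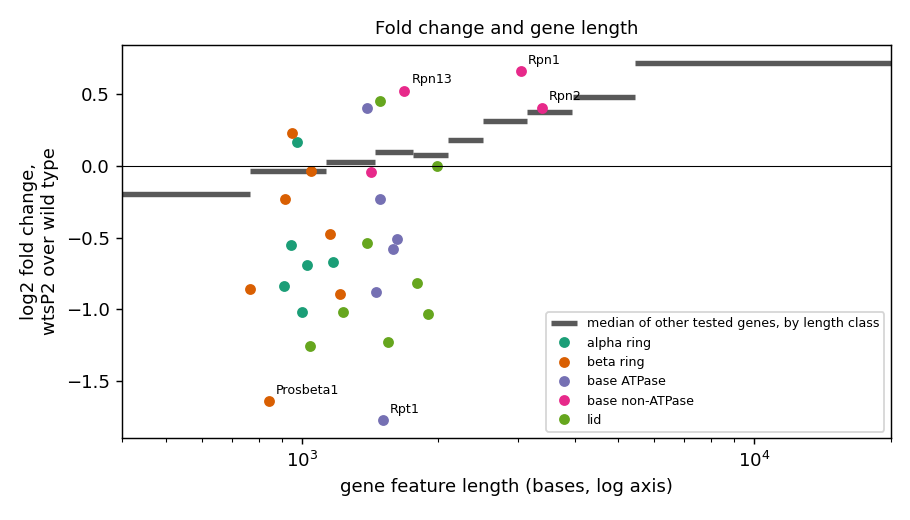
Log2 fold change (wtsP2 over wild type) of the 31 subunit genes against the length of the gene feature (log axis), coloured by subcomplex, with grey bars at the median of other tested genes in each of 10 length classes. Of the 31 genes, 23 lie below the median of their class and 8 above it, Rpn1, Rpn2 and Rpn13 among them.

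Per kilobase, the subunit transcripts were among the more abundant in the disc but not equal to each other. The median RPKM over the 31 genes was 90.7 and 79.2 in wtsP2 and 171 and 131 in wild type, above 87.3% and 86.4% of all tested genes in wtsP2 and 91.8% and 90.0% in wild type. From the lowest to the highest gene, RPKM ran from 39.1 (Rpt1) to 298 (Rpt3) and from 39.7 (Rpn11) to 234 (Rpt3) in wtsP2. In wild type it ran from 46.9 (Rpt6) to 462 (Prosalpha6) and from 1.95 (Rpn8) to 465 (Rpn9). The coefficient of variation among the genes was 58.5% and 47.9% in wtsP2 and 49.1% and 77.9% in wild type, so the shallowest library was also the most uneven. The order differed between the groups: mean RPKM was highest for Rpt3 (266), Prosalpha7 (195) and Prosalpha6 (179) in wtsP2, and for Rpn9 (339), Rpt3 (334) and Prosalpha6 (297) in wild type. It differed within wild type too, where Rpn9 had 213 in the first library and 465 in the second.

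Which subunits were high was only partly shared between libraries. Over the 31 genes, log2 CPM correlated at Pearson r = 0.618 between the wtsP2 libraries and at 0.405 between the wild-type libraries, and from 0.218 to 0.514 between groups. These are descriptions over genes within a narrow range of level. Over all tested genes the same values were 0.868 in wtsP2 and 0.564 in wild type, and from 0.574 to 0.659 between groups. Each value between groups was thus above that between the wild-type libraries. The lowest counts of the 31 genes were 130 in the second wtsP2 library (Prosbeta1) and 2 in the second wild-type library (Rpn8).

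In the authors' deposited table, made with DESeq from another counting of the same libraries, the subunit genes had the same lean. Of 30 canonical genes with both group means above 0 there, 25 had a fold of the wtsP2 mean over the wild-type mean below 1 and 5 above it. The median fold in the authors' deposited table was 0.644 over these genes and 0.994 over all 7847 genes with both means above 0, of which 50.4% were below 1. The folds above 1 in the authors' deposited table were those of Rpn1 (1.47), Rpn8 (1.42), Rpt6 (1.31), Rpn2 (1.21) and Rpn13 (1.20), and the lowest was that of Prosbeta1 (0.273). The libraries are the same, so this is no second sample.

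Prosalpha1, which encodes an alpha subunit, had no counts in any library, which allows up to 0.852 and 0.780 CPM in wtsP2 and 1.42 and 4.30 CPM in wild type (3 counts per library). Its neighbour on chromosome 2R, the paralog Prosalpha1R, had no counts either. How reads that match more than 1 place were counted is not given, and whether this set the zeros was not tested.

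The paralogs were near silent. Of the 15, 8 had no counts in any library, 4 had 1 or 2 counts in all (Prosalpha3T, Prosbeta2R2, Prosbeta5R2 and Rpn12R), and 1 passed the filter. Rpt3R had 0 and 29 counts in wtsP2 and none in wild type, and Rpt6R had 8 and 10 counts in wtsP2 and 42 and 0 in wild type. Rpn13R, the paralog that passed, had 38 and 20 counts in wtsP2 and none in wild type, at least 7.69-fold higher against a floor of 3 counts over the wild-type group (edgeR adjusted p = 0.368). Its span lies inside a longer gene on the same strand that had 765 and 1192 counts in wtsP2 and 124 and 68 in wild type, and in the authors' deposited table Rpn13R is listed at 0 in both groups. In a list of testis and germ line genes, 8 of 11 matched members were at 0 in every library, among them aly, can, sa and bam. The highest was mia, a testis transcription factor gene, with 102 and 37 counts in wtsP2 and 27 and 1 in wild type. Summed over that list, levels were 29.2 and 17.6 scaled CPM in wtsP2 and 13.2 and 1.31 in wild type.

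Genes that assemble, activate or induce the proteasome went both ways. Of 13 tested members of that list, 0 passed in either direction. Their median log2 fold change was 0.10, with 5 negative values (42% of all tested genes were negative). The ubiquitin shuttle gene Rad23 had unscaled counts of 539 and 516 in wtsP2 and 695 and 162 in wild type. In scaled CPM Rad23 was lower in both wtsP2 libraries (-0.89 ± 0.42). Pomp, for the chaperone that matures the core particle, was at -1.15 ± 0.74, and REG, for an activator cap, at -0.44 ± 0.40, both lower in both wtsP2 libraries. The gene of the transcription factor cap'n'collar, cnc, whose long isoform induces proteasome genes in flies, was at -0.74 ± 0.67 with overlapping groups (named after its value was seen), and its small Maf partner gene maf-S at -1.77 ± 1.42. The gene ntc, for an F-box partner of PI31 in the testis, was at 2.80 ± 2.38 with no counts in the second wild-type library. Of 7 tested targets of that factor, 0 passed and 3 were negative (median 0.47): the glutathione transferase gene GstD1 was at 1.77 ± 0.73 and Gclc, for glutathione synthesis, at -2.12 ± 0.91.

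Ubiquitin conjugation genes had a median log2 fold change of -0.52 over 16 tested members, 10 of them negative, and 0 passed in either direction. Over all tested genes the median was 0.24 and 42% were negative, the background for the lists below too. Among the 311 other genes alike in level and length to the subunit genes, the median was -0.32 and 65.3% were negative. The share of negative values in the ubiquitin list is thus not set apart from that of such genes. No genes matched to these lists themselves were drawn. Unscaled counts of Uba1, for the ubiquitin-activating enzyme, were 2454 and 3762 in wtsP2 and 878 and 335 in wild type. In scaled CPM Uba1 was higher in both wtsP2 libraries (1.02 ± 0.37; edgeR adjusted p = 0.368). The conjugating enzyme gene eff was at -0.82 ± 0.41 and the cullin gene Cul3 at -0.84 ± 0.42, lower in both. Of 5 genes listed for the p97 segregase, which extracts proteins for the proteasome, 4 were matched and tested. The gene of the p97 ATPase itself was not among them. These 4 were all negative (median -0.72), with 0 called, led by Npl4 at -1.11 ± 0.41. For p47 (-0.08 ± 0.50) and Plap (-0.38 ± 0.64) the groups overlapped. The COP9 signalosome, which resembles the lid in subunit make-up and removes Nedd8 from cullins, had a median of -0.57 over 8 tested members, 5 of them negative, and 0 passed in either direction. Its subunit gene CSN1b was at -1.26 ± 0.73, and 3 of the 9 members were at 0 in the second wild-type library, against 1 in each other library. Its summed level was 543 and 422 scaled CPM in wtsP2 and 919 and 272 in wild type.

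Summed levels of fat body, blood cell and salivary gland markers were lower in both wtsP2 libraries. All 8 larval fat body genes were lower in both wtsP2 libraries (background 15.1% of all tested genes). Their log2 fold changes ran from -8.64 to -0.64, and 0 were called in either direction. Blood cell (haemocyte) genes summed to 157 and 245 scaled CPM in wtsP2 and 540.2 and 634 in wild type, with lz at 0 in every library. Of these, PPO2 (log2 fold change -3.18 ± 0.68) and srp (-5.75 ± 1.48) were lower in both wtsP2 libraries. For Hml (-0.28 ± 0.63) and Pxn (-0.31 ± 0.84) the groups overlapped. Salivary gland genes summed to 5.16 and 1.39 scaled CPM in wtsP2 and 505 and 421 in wild type, with 4 and 6 of the 7 at 0 in wtsP2 and 1 and 2 in wild type. The part of these tissues in the subunit values was not tested.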

How the data were processed

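Wing disc RNA was sequenced in 4 libraries (SOLiD Total RNA-Seq kit, from the labels' protocols). HTSeq, DESeq and the builds BDGP5 and dm3 are named in the submitters' processing notes. For the aligner, the strand setting and the counter, the sources used here give nothing. The authors deposited read counts, gene length and RPKM per library, per the file headers. A series-wide table gives the authors' mean signal of each group, counts divided by DESeq size factors per the file headers, and the fold, the authors' ratio of these means.

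The deposited counts went into edgeR 4.0.16 under R 4.3.3 (filterByExpr, TMM, robust quasi-likelihood F test, Benjamini-Hochberg over 7278 genes, threshold 0.05). The procedure was run on simulated data with a smaller spread between libraries and larger fold changes than those of the subunit genes. It thus cannot tell what the test could detect among the subunit genes here. The SE is the size of the log2 fold change divided by the root of F. RPKM was used for levels between genes. Members and lists were chosen with earlier results of these data known. Every member could be named, and in other lists the 4 genes with the smallest p and the 2 with the highest level. Named outside this rule were cnc, sd, dpp, lz, aly, can, sa and bam. Symbols came from the name table by identifier, for 14346 features. Alternatives were other scalings and filters, a stricter threshold, DESeq2 1.42.0, limma-voom (limma 3.58.1), a replicate block, a length curve and each library left out. Counts recovered from the authors' means were added after seeing the data; each mean resolved into 2 whole counts to a relative 1e-09.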

Additional observations from a re-analysis of the deposited data

How the results depend on the processing

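The direction of the subunit median was kept under every alternative run. It was -0.55, and ran from -0.66 to -0.19 with each library left out. Over all genes 0 were called higher and 0 lower, against 21 and 16 with no filter on low counts, 99 and 86 in DESeq2, 123 and 27 in limma-voom, and 3 to 2514 and 14 to 681 with a library left out. Subunit genes called higher ran from 0 to 5 and lower from 0 to 7 with a library left out, and were 0 under the other alternatives. With the replicate number as a block, 69 genes were called higher and 38 lower and 0 subunit genes. The numbers name libraries only: the differences between replicates 1 and 2 correlated at 0.008 between the groups over 7278 genes.

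Log2 fold changes of single genes near 0 or with uneven wild-type libraries turned sign. Prosbeta2 was at 0.14 with the replicate block, 0.49 in limma-voom and 0.029 with recovered counts. Rpn6 was at 0.31 with the replicate block, 0.0065 with no filter and 0.031 with the length curve. Rpn10 was at 0.10 with the replicate block, Prosbeta6 at -0.14 in limma-voom and -0.24 with recovered counts, and Prosalpha7 at -0.061 with recovered counts. With a library left out the ranges were -1.57 to 0.021 for Prosalpha3, -1.32 to 0.63 for Prosalpha6, -0.63 to 1.04 for Prosbeta2, -0.78 to 0.82 for Prosbeta3, -0.40 to 1.59 for Prosbeta6, -1.65 to 1.08 for Prosbeta7, -0.060 to 2.47 for Rpn1, -0.023 to 1.06 for Rpn2, -0.66 to 1.44 for Rpn6, -0.46 to 5.19 for Rpn8, -0.74 to 1.16 for Rpn10, -1.67 to 0.35 for Rpn11 and -1.19 to 1.02 for Rpt5. The cause was not tested.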
